A study of Mus musculus with 2 samples.

Results

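The 10 genes described here encode subunits of the neural BAF (SWI/SNF) chromatin remodelling complexes, out of 19202 genes in the deposited table. They were chosen by name, by matching Ensembl identifiers to mouse symbols, and all 10 were found. They fall into a shared core of 6 genes (Smarca4, Smarca2, Smarcc1, Smarcc2, Arid1a and Arid1b), 2 subunits of the progenitor complex (Actl6a and Phf10) and 2 subunits of the neuronal complex (Actl6b and Dpf1). The samples were telencephalic tissue of C57BL/6 mouse embryos at embryonic day 12 (E12), 1 from a conditional knockout of the histone variant H2A.Z (H2AZ cKO) and 1 from a control that carries the floxed allele (H2AZ fl/fl). The labels do not name the Cre line, the cells in which it acts or the number of embryos per sample. The extraction protocol speaks of cerebral cortex, while the tissue label reads telencephalic. The series text speaks of triplicates, whereas there is 1 column of counts for each genotype, called a library here, and the column headed WT was taken as the H2AZ fl/fl sample.

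BAF complexes use the energy of ATP to slide and evict nucleosomes. A single complex carries either Smarca4 (BRG1) or Smarca2 (BRM) as its ATPase, and it is assembled around the scaffold proteins Smarcc1 (BAF155) and Smarcc2 (BAF170). In the developing brain, dividing progenitors use Actl6a (BAF53a) and Phf10 (BAF45a), and postmitotic neurons replace them with Actl6b (BAF53b) and Dpf1 (BAF45b). The exchange of the BAF53 subunit is known to involve miR-9-3p (also called miR-9*) and miR-124, which bind the 3′ UTR of Actl6a, and the repressor REST, which holds these microRNAs down outside neurons.

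The miR-9-3p sequence and its match in Actl6a are shown because they are the sequence link between the progenitor and the neuronal form of the complex. The mature sequence is the same at all 3 mouse loci in RefSeq (GRCm38.p6), at chr3:88215652-88215673, chr7:79505318-79505339 and chr13:83738858-83738879, each on the plus strand. Capitals mark the seed, bases 2 to 8, in the microRNA, and the match to it in the 3′ UTR.
mmu-miR-9-3p: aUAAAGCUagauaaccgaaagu
Actl6a 3′ UTR: tcaacgtctgtAGCTTTAgtacactcagg
The Actl6a stretch lies at chr3:32726629-32726657 on the plus strand (GRCm38, GENCODE M21), and the match covers bases 38 to 44 of a 3′ UTR of 371 bases. The letters AGCTTTA, searched on the transcript strand alone, occur in 40 of 1763 3′ UTRs whose length is within 20% of that of Actl6a, or 2.27%. Over all 20983 annotated 3′ UTRs the share is 11.1%. The 3′ UTRs of Actl6b (196 bases), Phf10 (90 bases) and Dpf1 (1037 bases) hold no match to these letters. A match of letters is a description of the sequence and was not measured as binding here, and mature microRNAs were not counted in these libraries.

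The H2AZ cKO library held 8839840 counts and the H2AZ fl/fl library 8891198. With 1 library per genotype there is no replicate check, so no difference was tested for the genotype. Each ratio below is H2AZ cKO over H2AZ fl/fl in CPM (counts scaled to library size) after TMM scaling, with an exact 95% binomial (Clopper-Pearson) interval in brackets that covers the error of counting and nothing else. On the log2(CPM + 1) scale used for log2 ratios, differences of low genes come out too small. H2afz, the targeted gene, was lower in the library labelled H2AZ cKO (191 CPM) than in the H2AZ fl/fl library (289 CPM), with a ratio of 0.661 (0.621 to 0.703); the counts cover the whole gene, so they do not measure the deletion itself. Telencephalic genes were present in both libraries, and the 4 ventral ones of the 7 listed were higher in the H2AZ cKO, with Gsx2 at 1.43, Dlx5 at 1.30, Dlx1 at 1.26 and Dlx2 at 1.21 and intervals above 1. Of the dorsal genes, Emx1 was at 1.15 with an interval above 1, while Emx2 (1.03) and Lhx2 (1.02) had intervals that held 1; with the length, GC and level trend described below taken out, the interval of Lhx2 lay below 1 and that of Emx1 held 1. Markers of some other tissues differed between the libraries. The 8 diencephalic and hypothalamic genes summed to 59.4 CPM against 131 CPM, with Nkx2-4 at 0 in the H2AZ cKO, and the 8 erythroid genes summed to 687 CPM against 363 CPM. In the other lists, the interval left out 1 for 3 of 8 microglial, 0 of 6 endothelial and 1 of 5 tested meningeal genes. The 3 microglial intervals lay above 1, beside 12.6% of all tested genes, and the meningeal interval lay below 1, beside 11.2%. The median log2 ratio of the microglial genes was 0.42, with 7 above 0 and 1 below. Their highest level was 8.95 CPM (Csf1r, H2AZ cKO), and low counts widen the interval. The 8 microglial genes summed to 40.6 CPM against 29.2 CPM, the 6 endothelial genes to 106 CPM against 112 CPM, and the 6 meningeal genes, of which Lum is not in the table, to 13.5 CPM against 16.7 CPM. Xist stood at 732 against 22.2 CPM (H2AZ cKO first), while the Y-linked Kdm5d, Eif2s3y, Ddx3y and Uty had 0 to 5 counts in the H2AZ cKO and 190 to 647 in the H2AZ fl/fl, so the sex of the embryos and the genotype cannot be told apart. None of the 10 BAF genes lies on X, Y or the mitochondrial genome. The part of tissue makeup in the BAF ratios was not tested.

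The BAF transcripts differed little between the libraries, as did most tested genes. The ratios of all 10 lay between 0.862 and 1.11, and 0 of 10 passed 1.5-fold. Of the 14586 tested genes, those with at least 1 CPM in 1 of the libraries, 4.95% did. At that share, a count of 0 among 10 does not set the BAF genes apart. The share past 1.5-fold was not matched for depth. The median log2 ratio of the 10 was -0.041, with 4 genes above 0 and 6 below, beside a median of 0.0060 over all tested genes. A counting interval wholly below 1 was found for 4 of 10 (Smarcc1, Smarcc2, Arid1a and Arid1b), beside 11.2% of all tested genes. An interval wholly above 1 was found for 2 of 10 (Smarca2 and Actl6a), beside 12.6% of all tested genes, and that count was 0 when the libraries were scaled by their total counts. The BAF genes are deeply counted, and deep counting narrows the interval. Among the 3678 genes with a summed count in the same range (1264 to 13827), 15.8% had an interval below 1 and 25.7% above 1. In bulk tissue, fewer cells of a type and less RNA per cell cannot be told apart.

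**Figure D1:**
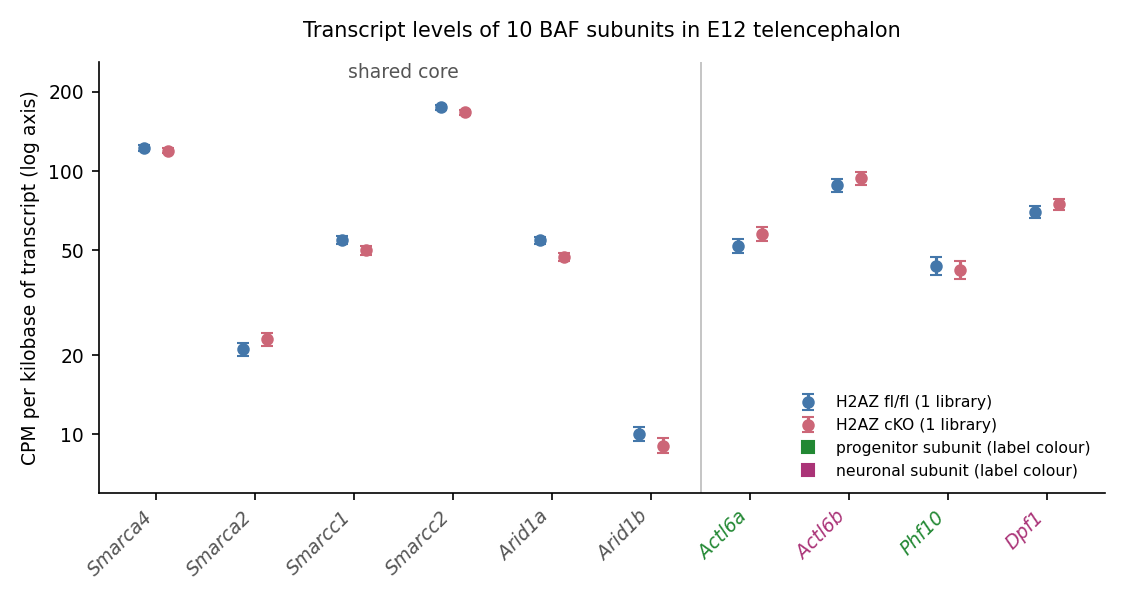
Level of each of the 10 BAF subunit genes in CPM per kilobase of transcript in the H2AZ fl/fl and the H2AZ cKO library, with 95% counting intervals, by role. The pair of points lies close together for every gene, and the genes are spread from about 9.06 (Arid1b, H2AZ cKO) to 175 (Smarcc2, H2AZ fl/fl).

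The ATPase Smarca4 (ENSMUSG00000032187, chr9:21616169-21704230) was the more abundant of the catalytic subunits, with 761 CPM in the knockout library and 781 CPM in the control. The ratio was 0.975 (0.943 to 1.01), so the libraries were not separated beyond counting error under TMM scaling. Under scaling by total count and by DESeq2 size factors, the interval of Smarca4 lay below 1. Its paralog Smarca2 (ENSMUSG00000024921, chr19:26605115-26778321), the alternative ATPase, which is known to gain in non-dividing cells, was at 136 and 125 CPM. Smarca2 was higher in the H2AZ cKO at a ratio of 1.09 (1.01 to 1.19), although the interval held 1 under scaling by total count and by DESeq2 size factors. Per kilobase of transcript, which allows levels of different genes to be compared, Smarca4 stood at 119 and 122 CPM and Smarca2 at 23.0 and 21.1 CPM.

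The share of Smarca2 among the counts of both ATPases does not depend on how the libraries are scaled. It was 15.2% (14.4 to 16.0) in the H2AZ cKO and 13.8% (13.0 to 14.5) in the H2AZ fl/fl. The difference was 1.41 percentage points (0.324 to 2.51, Newcombe interval), and the ratio of Smarca2 to Smarca4 was 1.12 times (1.03 to 1.23) as high in the H2AZ cKO. Among the 6 paralog pairs compared, this was the 1 pair whose interval for the difference did not hold 0, and no adjustment for 6 comparisons was made.

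The scaffold genes were both lower in the H2AZ cKO. Smarcc1 (ENSMUSG00000032481, chr9:110117708-110240178), the scaffold that dominates in embryonic stem cells, had 289 CPM in the knockout and 316 CPM in the control, which is a ratio of 0.915 (0.867 to 0.966). Smarcc2 (ENSMUSG00000025369, chr10:128459236-128490173), the scaffold that competes with it in the developing cortex, had 762 and 796 CPM, which is a ratio of 0.957 (0.926 to 0.990). Their balance did not separate beyond counting error. Smarcc2 took 72.5% of the counts of the pair in the H2AZ cKO and 71.6% in the H2AZ fl/fl, a difference of 0.903 points (-0.368 to 2.17).

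The ARID subunits, large DNA-binding proteins that define the canonical BAF complex, held the lowest ratio of the 10 genes. Arid1a (ENSMUSG00000007880, chr4:133679008-133756769, minus strand) had 385 CPM in the knockout and 447 CPM in the control (ratio 0.862, 0.824 to 0.903). Arid1b (ENSMUSG00000069729, chr17:4994332-5347656), its paralog and a gene mutated in Coffin-Siris syndrome, had 103 and 113 CPM (ratio 0.904, 0.826 to 0.990). The library order of Arid1b turned once the joint trend over length, GC and level had been taken out (log2 ratio 0.0100, against -0.14 without removal). The share of Arid1b in the pair was 21.0% in the knockout and 20.2% in the control, a difference of 0.774 points (-0.873 to 2.43). Over the 6 core genes the median log2 ratio was -0.095, and it was -0.059 with the trend removed.

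Arid2 takes the place of Arid1a and Arid1b in PBAF, the BAF variant that also holds Pbrm1 and Brd7. It had 150 CPM in the knockout and 147 CPM in the control, which is a ratio of 1.02 (0.946 to 1.10). Its share of the counts of all 3 ARID genes was thus larger in the H2AZ cKO, at 23.5% (22.4 to 24.6) against 20.7% (19.7 to 21.8). The ratio of Arid2 to the sum of Arid1a and Arid1b was 0.307 and 0.262, a ratio between the libraries of 1.17 (1.08 to 1.28). Pbrm1, the PBAF subunit with several bromodomains, was at 0.944 (0.869 to 1.03), and Brd7 at 1.06 (0.978 to 1.15), so neither separated beyond counting error.

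**Figure D2:**
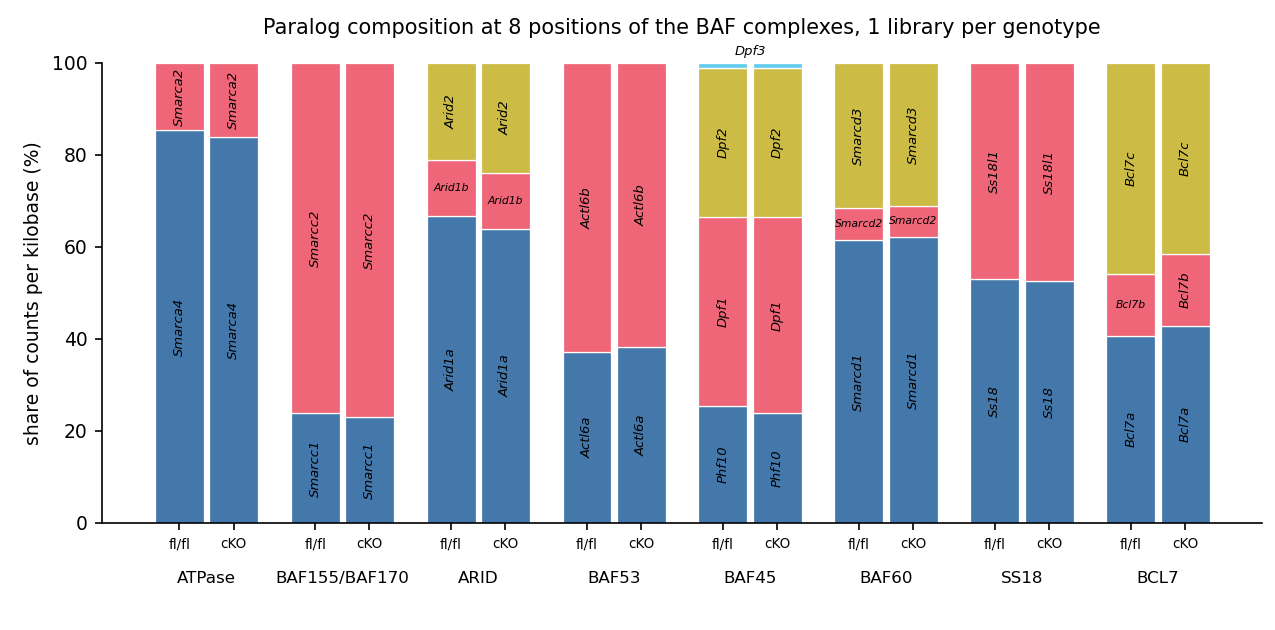
Share of each paralog at 8 positions of the BAF complexes, in percent of counts per kilobase of transcript, for the H2AZ fl/fl (left bar) and the H2AZ cKO (right bar) library; Dpf3 is the thin top segment of the BAF45 bars. The order of the paralogs is the same in both libraries at 7 positions and differs at BCL7, where Bcl7c leads in the H2AZ fl/fl (45.9%) and Bcl7a in the H2AZ cKO (42.9%); per kilobase of merged exons Bcl7a leads in both. Arid2 takes 23.9% of the ARID bar in the H2AZ cKO against 21.1% in the H2AZ fl/fl.

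The BAF53 subunits, actin-related proteins that are exchanged as progenitors become neurons, were both nominally higher in the H2AZ cKO. Actl6a (ENSMUSG00000027671, chr3:32706298-32726973), the progenitor form whose 3′ UTR is shown above, had 116 CPM in the knockout and 104 CPM in the control, which is a ratio of 1.11 (1.02 to 1.22). Its interval held 1 under total-count scaling and once that joint trend had been taken out. Actl6b (ENSMUSG00000029712, chr5:137553517-137569582), the neuronal form, had 149 and 140 CPM, a ratio of 1.06 (0.984 to 1.15) that did not separate from 1. With the trend removed, its log2 ratio went from 0.089 to -0.0092. Actl6b took 56.2% (54.2 to 58.3) of the BAF53 counts in the H2AZ cKO and 57.3% (55.2 to 59.4) in the H2AZ fl/fl. The difference of -1.12 points (-4.01 to 1.77) was within counting error, and per kilobase the shares were 61.9% and 62.9%.

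The BAF45 position, filled by proteins that read histone tails through PHD fingers, also showed no difference in the balance of its forms beyond counting error. Phf10 (ENSMUSG00000023883, chr17:14945009-14961273, minus strand), the progenitor form, had 70.1 CPM in the knockout and 72.4 CPM in the control, which is a ratio of 0.968 (0.865 to 1.08). Dpf1 (ENSMUSG00000030584, chr7:29303951-29317588), the neuronal form, was at 172 and 162 CPM, a ratio of 1.07 (0.991 to 1.15). Neither ratio separated from 1. The share of Dpf1 in the pair was 71.1% against 69.1%, a difference of 2.02 points (-0.745 to 4.77). Of all 4 genes that can fill this position, Dpf2, the form found in many cell types, took the most counts (43.3% and 43.4%), and Dpf3, a form known from muscle and neurons, the fewest (1.23% and 1.33%). Per kilobase, Dpf1 led instead, with 42.5% and 41.0% against 32.5% for Dpf2 in both libraries.

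The summed neuronal over the summed progenitor subunits gives 1 measure of the exchange. Actl6b and Dpf1 together had 1.73 times the counts of Actl6a and Phf10 in the H2AZ cKO and 1.71 times in the H2AZ fl/fl. The ratio between the libraries was 1.01 (0.925 to 1.10), so no difference in the balance was detectable at this depth. Transcripts of both neuronal forms were present at E12 at levels above those of their progenitor partners, and per kilobase too Actl6b (93.8 and 88.1 CPM) exceeded Actl6a (57.8 and 51.9 CPM).

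The order of the 10 genes by CPM per kilobase ran, in the H2AZ fl/fl, from Smarcc2 (175) through Smarca4 (122), Actl6b (88.1) and Dpf1 (70.0) to Smarca2 (21.1) and Arid1b (interval 9.41 to 10.7). In the middle, Smarcc1 at 54.7 (52.8 to 56.8), Arid1a at 54.6 (52.9 to 56.3) and Actl6a at 51.9 (48.7 to 55.3) did not differ beyond counting error, and Phf10 followed at 43.5 (40.3 to 47.0). These levels use the length of the longest coding transcript, and much of the order rests on that choice. Per kilobase of merged exons, Smarcc2 (143) and Smarca4 (121) still led in the H2AZ fl/fl, but Smarcc1 (40.4) and Arid1a (39.0) came before Actl6b (32.9), Dpf1 (30.1) and Actl6a (26.9), and Smarca2 (8.74) came last.

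The 21 other subunits of BAF, PBAF and ncBAF were all measured. Their median log2 ratio was 0.052, with 13 above 0 and 8 below, and 0 of 21 passed 1.5-fold, beside 4.95% of all tested genes. At that share, a count of 0 among 21 does not set these subunits apart. An interval above 1 was found for 7 of 21, beside 12.6% of all tested genes and 25.7% of those in the count range given above. An interval below 1 was found for 2 of 21, beside 11.2% and 15.8%. That count range is the range of the 10 BAF genes, and Dpf3, Bicral, Smarcd2, Bcl7b and Actb lie outside it. With the trend removed, 6 intervals lay above 1 and 3 below, beside 9.59% and 9.72% of all genes treated the same way. Smarcb1 and Smarce1 were then no longer among those above 1. Among the invariant subunits, Smarcb1, the tumour suppressor that anchors the complex on the nucleosome, was at 1.06, with a log2 ratio that went from 0.084 to -0.0187 when the trend was removed. Smarce1 was at 1.08, while Actb, the actin of the complex and of the cytoskeleton, was at 1.16 (1.14 to 1.19). The log2 ratio of Actb was 0.22, and it was 0.059 with the trend removed and 0.18 under total-count scaling. Outside the invariant subunits, Smarcd1 was at 1.10 (1.05 to 1.16). The paralogs of Smarcd1 had wider intervals, with Smarcd2 at 1.07 (0.913 to 1.26) and Smarcd3 at 1.08 (0.980 to 1.18). Of the BCL7 proteins, Bcl7a was at 1.10 (1.04 to 1.15) and Bcl7b at 1.21 (1.05 to 1.40), whereas Bcl7c was at 0.941 (0.851 to 1.04). The log2 ratio of Bcl7c went from -0.087 to -0.29 with the trend removed, and its interval then lay below 1.

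The other subunits with a role in neurons or in the variant complexes did not move as 1 group. Bcl11a, a zinc finger protein of cortical neurons that also joins BAF, was at 1.08 (1.03 to 1.13), and Bcl11b at 1.04 (0.984 to 1.09). Ss18 is replaced by Ss18l1 (CREST) in neurons, and the share of Ss18l1 was 48.6% in the H2AZ cKO and 48.1% in the H2AZ fl/fl, a difference of 0.499 points (-3.14 to 4.14). Dpf2 was at 1.03 (0.960 to 1.10) and Dpf3, at 47 and 51 counts, at 0.953 (0.628 to 1.45). The paralogs Bicra (GLTSCR1) and Bicral (GLTSCR1L), which mark ncBAF, were the 2 genes with an interval below 1, at 0.866 (0.783 to 0.957) and 0.757 (0.639 to 0.896). Brd9, their ncBAF partner, was at 0.977 (0.894 to 1.07). The sum of these 3 genes over that of Arid1a and Arid1b differed between the libraries by a ratio of 1.03 (0.961 to 1.11).

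**Figure D3:**
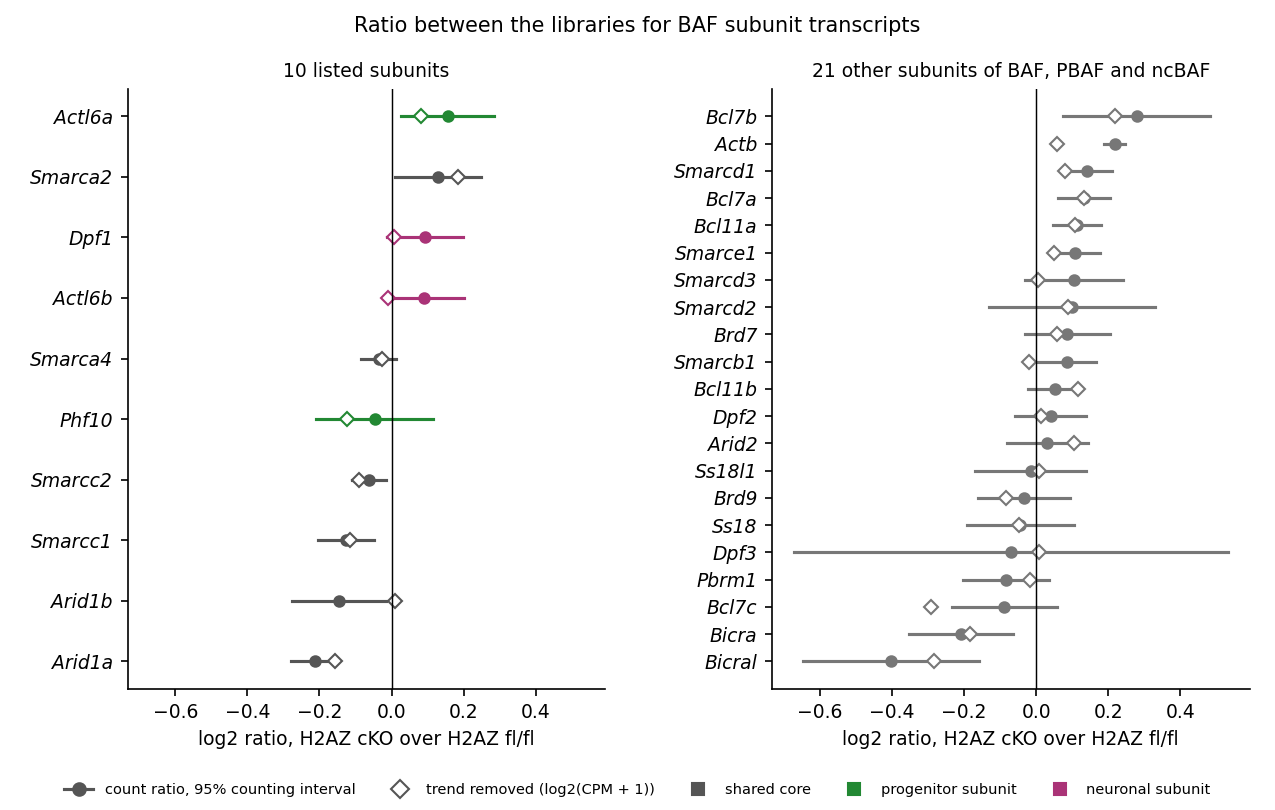
Log2 ratio of H2AZ cKO over H2AZ fl/fl for the 10 listed BAF subunits (left, by role) and the 21 other subunits (right). Filled points with bars are count ratios with 95% counting intervals and open diamonds are log2(CPM + 1) ratios after removal of the length, GC and level trend; among the filled points, Arid1a is lowest on the left and Bicral on the right.

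The genes that act on the exchange of subunits were measured as host transcripts or as messenger RNA. Rest, the repressor, had 22.6 CPM in the knockout and 23.7 CPM in the control, which is a ratio of 0.952 (0.781 to 1.16). Its corepressor Rcor1 was at 0.854 (0.741 to 0.983) and Rcor2, the paralog of Rcor1, at 1.04 (0.999 to 1.09). The annotated host transcript of miR-9-3, Mir9-3hg, was at 1.02 (0.961 to 1.09), that of miR-9-2, C130071C03Rik, at 0.975 (0.932 to 1.02), and that of miR-124a-1, Mir124a-1hg, at 1.07 (1.02 to 1.12). The levels of the host transcripts do not measure the mature microRNAs. The splicing repressor Ptbp1, a known target of miR-124, and its neuronal paralog Ptbp2 were at 1.10 (1.05 to 1.16) and 1.09 (1.03 to 1.14). Over these 8 genes the median log2 ratio was 0.047, with 3 intervals above 1 and 1 below, beside 12.6% and 11.2% of all tested genes. With the trend removed, 2 lay above 1 (Mir124a-1hg and Ptbp1) and 2 below (Rcor2 and C130071C03Rik), while Rcor1 and Ptbp2 held 1. The shares of all genes treated the same way were 9.59% above and 9.72% below.

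Other remodellers give a scale for these values. The 17 ATPase genes of the other families had a median log2 ratio of -0.13, with 10 intervals below 1 and 2 above, beside 11.2% and 12.6% of all tested genes. With the trend removed these were 6 below and 4 above, beside 9.72% and 9.59% of all genes treated the same way. Without that removal, the largest differences were those of Srcap at 0.715 (0.513 to 0.992), Chd6 at 0.785 (0.723 to 0.852), Chd9 at 0.797 (0.702 to 0.903) and Ep400 at 0.800 (0.747 to 0.856); Srcap and Ep400 are the ATPases of the complexes that deposit H2A.Z. The intervals of Srcap and Chd9 held 1 with the trend removed, and the largest log2 ratio was then that of Chd5 (0.41), a gene named after its values were seen, whose ratio without removal was 1.23 (1.12 to 1.35). The 17 partners of the ISWI and NuRD ATPases had a median of -0.0095. Intervals lay below 1 for 4 and above 1 for 4, beside 11.2% and 12.6% of all tested genes. With the trend removed, 2 lay below and 2 above, close to the shares of all genes treated the same way (9.72% and 9.59%). Bptf and Mbd3 were among those that then held 1. Gatad2b was at 0.816 (0.751 to 0.885), Hdac2 at 1.16 (1.12 to 1.21), Bptf at 0.862 (0.798 to 0.930) and Mbd3 at 1.15 (1.08 to 1.22).

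Transcript length moved with the ratio across all genes. The tested genes were put in 10 bins of near equal size by transcript length. In bin 1, with the shortest transcripts (57 to 1237 bases), the median log2 ratio was 0.12, and in bin 10 (6739 to 123179 bases) it was -0.12. An interval below 1 was found for 4.21% of bin 1 and 34.3% of bin 10. The BAF genes with long transcripts are the core genes. Arid1a (8187 bases) and Arid1b (11325 bases) are in bin 10, whose middle 50% of log2 ratios ran from -0.25 to 0.0011, and both lay within it. Smarca4, Smarca2 and Smarcc1 are in bin 9, where the median was -0.066, and Smarca2 at 0.13 was above the middle 50% (-0.18 to 0.046). Actl6b and Phf10 are in bin 2, with a median of 0.084, Actl6a in bin 3 (0.061) and Dpf1 in bin 4 (0.031). Smarcc2 is in bin 8 (-0.029). Over the 10 BAF genes, the log2 ratio and log2 transcript length had a Pearson r of -0.65 and a Spearman rho of -0.55, as a description of 10 genes from the same 2 libraries.

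With the joint trend of length, GC content and level removed, the median log2 ratio of the 10 genes was -0.018. Each counting interval was moved by the same shift as its log2 ratio, so it covers no error of the fit. The lengths of the 10 were those of the longest coding transcript, and the fit was not repeated with other lengths. The interval then lay below 1 for Smarcc1, Smarcc2 and Arid1a, at log2 ratios of -0.11, -0.090 and -0.16, beside 9.72% of all genes treated the same way. It lay above 1 for Smarca2 alone of the 10, at 0.19, beside 9.59%. The 17 other ATPase genes, whose median transcript is 8509 bases long, went from a median of -0.13 to -0.093. The origin of the length trend, and its part in the core ratios, was not tested.

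**Figure D4:**
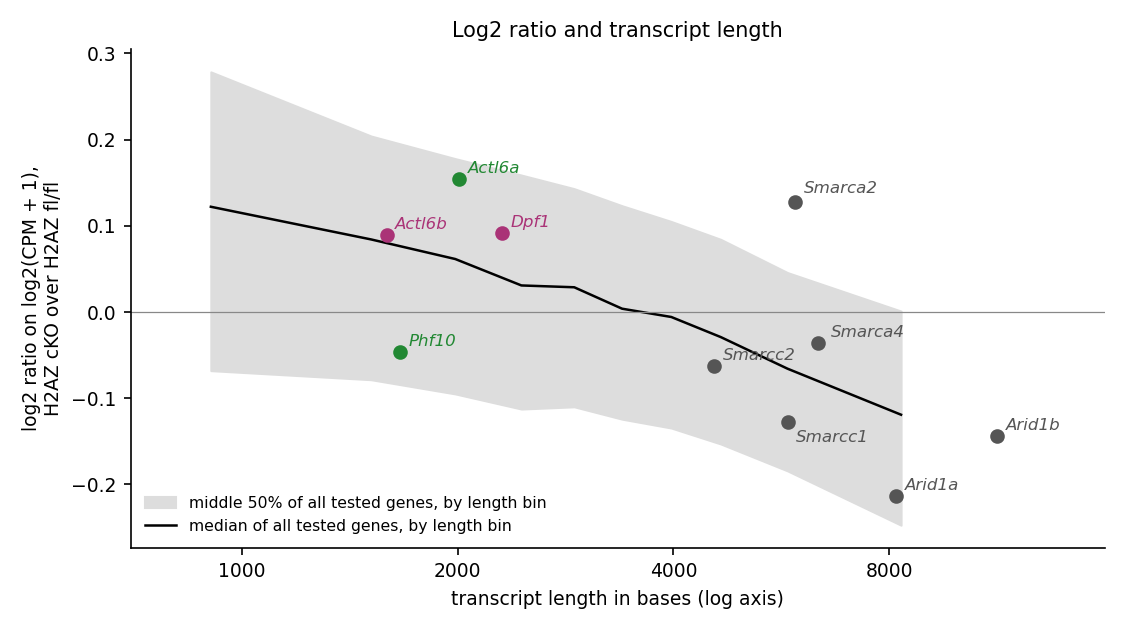
Log2 ratio of H2AZ cKO over H2AZ fl/fl on log2(CPM + 1) against transcript length on a log axis; the line and band give the median and the middle 50% of all tested genes in 10 length bins, each at its median length, and points are the 10 BAF subunits. The line runs from 0.12 to -0.12, and Smarca2 lies above the band.

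Progenitor and neuron markers were compared because the subunits differ between these cells. The 12 apical progenitor genes had a median log2 ratio of 0.10, with 10 above 0 and 2 below. Intervals lay above 1 for 7 and below 1 for 1, beside 12.6% and 11.2% of all tested genes. With the trend removed, the median was 0.072, with 5 intervals above 1 and 2 below, beside 9.59% and 9.72% of all genes treated the same way. Hes5 was at 1.62 (1.37 to 1.91), Hes1 at 1.34 (1.16 to 1.54), Notch1 at 0.793 (0.735 to 0.855) and Vim at 1.12 (1.09 to 1.15). Pax6 and Sox2, transcription factors of progenitors, were at 0.972 (0.898 to 1.05) and 1.06 (1.0002 to 1.12). The log2 ratio of Sox2 went from 0.080 to -0.011 with the trend removed, and its interval then held 1. The 7 intermediate progenitor genes had a median of 0.099, with 5 above 0 and 2 below. Hes6 was at 1.21 (1.13 to 1.30) and Insm1 at 1.11 (1.04 to 1.19), and the interval of Insm1 held 1 with the trend removed. Intervals held 1 for Neurog1 at 1.16 (0.962 to 1.41), Neurod4 at 0.837 (0.576 to 1.21) and Eomes at 0.982 (0.931 to 1.04). The 13 neuron genes had a median of 0.042, with 9 above 0 and 4 below. Of the neuronal genes, Gap43 was at 1.14 (1.08 to 1.19), Neurod6 at 1.10 (1.06 to 1.15) and Tubb3 at 1.08 (1.06 to 1.10). Below 1 were Dcx at 0.927 (0.896 to 0.959), Elavl4 at 0.926 (0.864 to 0.991) and Map2 at 0.905 (0.875 to 0.935). With the trend removed, the log2 ratio of Tubb3 was -0.069 and the median of the neuron list was -0.025. Of the 13 neuron intervals, 5 then lay below 1 and 0 above, beside 9.72% and 9.59% of all genes treated the same way. Without that removal, 3 lay in each direction, beside 11.2% below and 12.6% above of all tested genes. The sums of the 12 progenitor and the 13 neuron genes were 1.08 and 1.02 times as high in the H2AZ cKO as in the H2AZ fl/fl, and the sum of the 10 BAF genes was 0.964 times as high.

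In the authors' deposited table, 0 of the 10 BAF genes carry the authors' mark of significance, which 172 genes carry and which requires an absolute log2 fold change of at least 1. In the authors' deposited table, 5 of the 10 (Smarca4, Smarcc1, Smarcc2, Arid1a and Arid1b) have an adjusted p under 0.05 and are lower in the H2AZ cKO, beside 5.97% of all genes. None of the 10 has an adjusted p under 0.05 and is higher in the authors' deposited table, beside 3.57% of all genes. Both shares are over all 19202 genes, without the 1 CPM floor and without a match for depth. The authors' log2 fold changes of Smarca4 (-0.077) and Arid1a (-0.254) equal those under total-count scaling. That scaling put the intervals of the same 5 genes below 1 and none above. It moved the median of all tested genes from 0.0060 to -0.035, and its part in the authors' counts was not tested. The sources do not name the authors' test. With 1 count column per genotype, these adjusted p-values are not read here as a measure of variation between embryos.

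Some BAF genes share bases with a neighbour, and the sources do not say whether counting used strand. Actl6a shares 452 exonic bases (11.6% of its merged exons) with Mrpl47 on the opposite strand, which was at 0.858 (0.713 to 1.03), while Actl6a was higher. Phf10 shares 470 exonic bases (9.56%) with 1600012H06Rik on the opposite strand, at 1.09 (0.912 to 1.30). Smarcc1 shares 123 bases with Dhx30, Dpf1 96 bases with Gm44632, Smarca2 40 bases with 4931403E22Rik and Smarca4 99 bases with Gm27373. Smarcd3, of the other subunits, shares 48.2% of its merged exons with Chpf2. Reads in these stretches cannot be assigned to 1 of the partners from the deposited counts.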

How the data were processed

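RNA was sequenced from 1 H2AZ fl/fl and 1 H2AZ cKO sample. Per the labels' protocols, an Illumina TruSeq kit and 2 ug of RNA were used for each library. The submitters' processing notes name TopHat2 2.0.12, Bowtie2 2.2.3, HTSeq 0.6.0 and mm9 without their roles; the deposited positions instead overlap the same gene in GENCODE M21 (GRCm38) for 99.5% of genes, 10 of 10 BAF genes among them, and GRCm38 is used here. The authors deposited whole-number read counts per Ensembl gene. The 2 deposited columns of normalized values were not used. The authors' log2 fold change and the authors' p-values are used only where named.

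Libraries were scaled with TMM (edgeR 4.0.16, R 4.3.3; factors 0.986 and 1.01). Other steps used scipy 1.17.1, pandas 2.3.3, numpy 2.4.6 and matplotlib 3.10.9 under Python 3.11.15. Log2 ratios used a pseudocount of 1 CPM for 14586 genes at 1 CPM or more in the higher library. Counting intervals are at 95% and leave out every error but that of counting, because each genotype has 1 library. Without molecular identifiers reads are not independent, so the intervals can be too narrow. Shares have Clopper-Pearson intervals, and their differences Newcombe intervals. The trend of the log2 ratio on transcript length, GC content and level was fitted over 14543 genes with splines of 4 knots, and the procedure was tested on simulated data. Alternatives were pseudocounts of 0.1 and 5 CPM, no floor and a floor of 5 CPM, total-count scaling, DESeq2 1.42.0 size factors, trend removal, other fold sizes, and shares per kilobase.

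Named are the 10 BAF genes, H2afz, every gene of the lists of other BAF subunits and of the exchange circuit, up to 4 genes with the largest log2 ratios in other lists, and Pax6, Sox2, Eomes, Tubb3, Dcx, Map2 and sex-linked genes. The telencephalic list, Chd5 and the genes sharing bases were chosen after their values were seen. The members and lists were chosen with earlier results of these data known.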

Additional observations from a re-analysis of the deposited data

How the results depend on the processing

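The values rest on 1 library per genotype, so leaving out a replicate was not possible. No paired analysis was possible because each genotype has 1 count column. The count of BAF genes with an interval above 1 was 2, against 1 with the trend removed, 1 with DESeq2 size factors and 0 with total-count scaling. Those with an interval below 1 numbered 3 to 5, and Smarca4 joined under both other scalings. With the trend removed, the log2 ratio turned to 0.0100 for Arid1b and to -0.0187 for Smarcb1; the cause was not tested. Log2 ratios whose intervals held 1 also changed sign, for Actl6b, Dpf3 and Ss18l1 with the trend removed and for Arid2 and Dpf2 under total-count scaling. The median of the 10 stayed below 0 in every alternative run (-0.081 to -0.018), as did that of the core (-0.14 to -0.059), and that of the 21 other subunits stayed above 0 (0.011 to 0.052). Total-count scaling moved the median of all genes from 0.0060 to -0.035. Scaling cannot move a share within a library. Merged exon lengths, chosen after seeing the data, gave shares of Actl6b of 53.9% and 55.0%, and another order of levels. Depth limits Dpf3 (47 and 51 counts) most among the BAF subunits.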
